A study of Mus musculus with 5 samples.

Results

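HOX genes were examined in mouse lung cells that were GFP-positive and had been sorted by flow cytometry on postnatal day 2. Members were all genes whose symbol is Hox, a cluster letter from a to d and a paralogue number, and that had a probe set with 1 gene symbol. There were 33 of them among 18194 genes, and where a gene had several such probe sets the one of highest average signal was used. Of the 39 mouse HOX genes in the RefSeq gene table (GRCm38.p6), 6 were not analysed here.

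The pups carried the SPC-GFP transgene and came from matings of that line with outbred ICR mice. SPC commonly stands for surfactant protein C, a marker of alveolar type 2 cells. All 5 samples were biological replicates of this 1 group, each with 1 Affymetrix array, so no genotype, age or treatment could be compared. The labels do not say whether a replicate was 1 pup or a pool, so the p-values below reflect only how far these 5 samples differ, which may be technical. Titles name the sorted cells alveolar type 2 cells, and the design text names them ciliated cells.

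HOX genes encode homeodomain transcription factors that lie in 4 clusters, HOXA to HOXD. Genes of the same number in different clusters are paralogues, and low numbers lie at one end of a cluster and high numbers at the other. Low-numbered genes are active in anterior parts of the body and high-numbered genes in posterior parts. In the developing lung, low and middle HOXA and HOXB genes are known mainly from the mesenchyme, and mice without Hoxa5 have defects of the airways and alveoli. HOX proteins bind DNA together with PBX and MEIS proteins, and Polycomb and Trithorax complexes keep their genes silent or active.

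Values were taken as log2 signals, with 1 value per probe set and array. Background was set on each array at the 95th percentile of 77 receptor genes for smell, taste and pheromones. Replicates 1 to 5 had backgrounds of 5.45, 5.43, 5.47, 5.70 and 5.55. A gene was called where its mean exceeded background with an adjusted p under 0.05 (limma, one-sided, Benjamini-Hochberg). The alveolar type 2 genes Sftpc and Sftpb had 14.67 ± 0.053 and 14.13 ± 0.077 (SD, n = 5), and all 18 measured genes of that list were called. The alveolar type 1 genes Ager and Pdpn had 14.68 ± 0.015 and 13.24 ± 0.091, and the ciliated genes Foxj1 and Ccdc39 had 7.91 ± 0.61 and 9.75 ± 0.51. Of the other lists, 21 of 23 fibroblast and mesenchyme, 9 of 9 smooth muscle, 17 of 17 endothelial, 14 of 15 immune and 4 of 8 mesothelial genes were called. Of all 18117 genes other than these receptor genes, 74.9% were called. Fewer cells of a type and less RNA per cell cannot be told apart in such bulk samples. Replicate 1 had the highest hybridisation controls (bacterial bioB and bioC, 12.73 against 11.78 to 11.98), and replicate 3 had the largest difference between 3′ and 5′ probe sets of Actb (0.845 against 0.542 to 0.599).

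Most HOX genes with signal above background were HOXA and HOXB genes of low and middle number. Of the 33 members 13 were called, or 39.4%, where 74.9% of all 18117 genes outside the receptor set were called. The median over the 33 members lay 0.32 log2 units under background (−0.32), and the median over all these genes lay 3.42 above it. By cluster, 6 of 9 HOXA, 5 of 9 HOXB, 1 of 7 HOXC and 1 of 8 HOXD genes were called. By number, 4 of 7 genes numbered 1 to 3, 5 of 12 numbered 4 to 8 and 4 of 14 numbered 9 to 13 were called. The called genes included all 8 HOXA and HOXB genes numbered 2 to 5, a grouping chosen after the values were seen, and 5 of the other 25 members. All 13 lay above the background on all 5 arrays. With the 99th percentile as background 7 members were called, where 66.8% of all genes outside the receptor set were, and with the 90th percentile 15 were (79.5%). With the lowest probe set of each gene 9 members were called (60.5%), and with the median of its probe sets 11 were (73%). With a background from 39 genes typical of other organs, 3 members were called (Hoxa5, Hoxb3 and Hoxb5), where 52.5% of the other genes were. That background was 8.93, 8.13, 8.07, 7.98 and 8.11 in replicates 1 to 5, above the median probe set of each array (7.12 to 7.19). A gene under it can thus still lie above the receptor background.

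**Figure D1:**
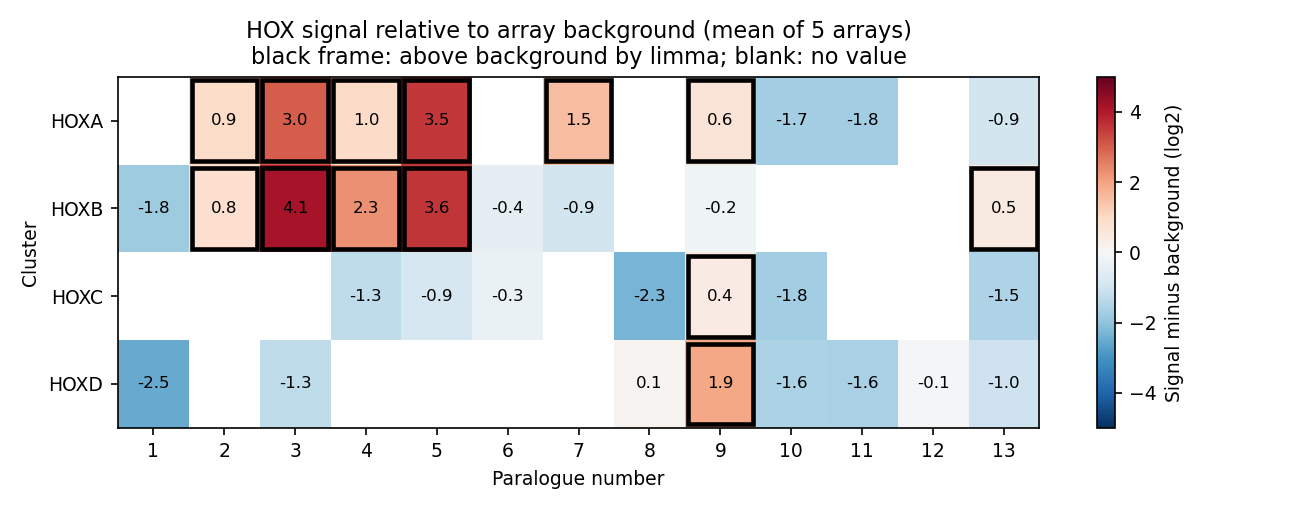
Mean signal minus array background over 5 arrays (log2, colour and number) for each HOX gene, by cluster (rows) and paralogue number (columns). Black frames mark genes above background by limma. Blanks are positions without an analysed member, among them positions at which the mouse has no HOX gene. The frames fill HOXA and HOXB numbers 2 to 5, and 5 lie elsewhere (Hoxa7, Hoxa9, Hoxb13, Hoxc9 and Hoxd9). Colours show each probe set against background and do not rank the genes by expression.

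The genes numbered 5 are known for their part in lung branching and maturation. Hoxa5 read 9.09, 9.30, 8.78, 8.74 and 9.43 in replicates 1 to 5, and all 5 values lay over 3 log2 units above their arrays' backgrounds. Its mean lay 3.54 ± 0.13 (SE) above background (limma adjusted p = 2.56e-13). Hoxb5 read 8.82, 9.21, 8.97, 8.74 and 9.67, also far above background on every array, with a difference of 3.56 ± 0.14 (limma adjusted p = 4.86e-13). Both were highest in replicate 5 and lowest in replicate 4. Their paralogue Hoxc5 lay below background on every array, at 4.74, 4.67, 4.66, 4.58 and 4.70. A second probe set of Hoxa5 averaged 8.31, and 3 probe sets of Hoxc5 averaged 4.67, 4.61 and 3.18, so all probe sets of these genes gave the same side of the background.

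Group 4 split in the same way between clusters. Hoxb4, known as a regulator of blood stem cells, read 7.90, 7.48, 7.85, 7.37 and 8.51, a difference from background of 2.30 ± 0.16 (limma adjusted p = 1.27e-09). Hoxa4 read 6.16, 6.52, 6.45, 5.99 and 7.30, nearest to background in replicate 4 and farthest above it in replicate 5 (0.96 ± 0.18, limma adjusted p = 7.42e-05). Hoxc4 read 4.50, 4.11, 4.04, 4.27 and 4.28, below background on every array. The calls of Hoxa4 and Hoxb4 rest on 1 of 2 probe sets each: the other probe sets averaged 4.15 and 4.71, below background.

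Upstream sequences are shown for Hoxa5 and Hoxb4, which were called, and for Hoxc4, the uncalled paralogue of Hoxb4. They are the 250 bases before the start of the gene in RefSeq (GRCm38.p6), 5′ to 3′ on the strand of the gene, and the start used in these cells was not measured. The Hoxa5 window is chr6:52204588-52204837 on the minus strand, the Hoxb4 window chr11:96318017-96318266 and the Hoxc4 window chr15:103034145-103034394, both on the plus strand. Capitals mark words of 12 bases that 2 of these windows share.
Hoxa5: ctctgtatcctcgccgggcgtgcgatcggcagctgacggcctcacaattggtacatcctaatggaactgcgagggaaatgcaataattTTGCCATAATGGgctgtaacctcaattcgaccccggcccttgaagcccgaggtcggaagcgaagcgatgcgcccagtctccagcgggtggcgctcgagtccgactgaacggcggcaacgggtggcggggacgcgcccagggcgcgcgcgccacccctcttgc
Hoxb4: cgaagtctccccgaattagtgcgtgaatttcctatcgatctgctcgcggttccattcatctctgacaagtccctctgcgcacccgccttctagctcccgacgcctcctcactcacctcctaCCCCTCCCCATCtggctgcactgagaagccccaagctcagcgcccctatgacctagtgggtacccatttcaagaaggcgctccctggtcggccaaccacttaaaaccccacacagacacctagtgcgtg
Hoxc4: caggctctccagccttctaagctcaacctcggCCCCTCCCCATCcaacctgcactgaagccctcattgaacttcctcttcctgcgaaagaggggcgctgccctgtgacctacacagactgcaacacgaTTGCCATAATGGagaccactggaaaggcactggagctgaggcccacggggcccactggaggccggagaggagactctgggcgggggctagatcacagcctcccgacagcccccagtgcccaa
The word TTGCCATAATGG stood in the windows of Hoxa5 and Hoxc4. Among 32851 windows of this length in the RefSeq table, 2 held it on either strand, and these were those 2. The other marked word, CCCCTCCCCATC, stood in the windows of Hoxb4 and Hoxc4 and in 25 windows of the table in all. Each word is thus held by a called and an uncalled gene. Upstream windows were found for 19 of the 33 members, 7 windows of 7 called genes and 14 windows of 12 uncalled genes. The median GC content was 58.0% in windows of called genes and 59.2% in those of uncalled genes, against 52.4% over all windows, with medians of 13 and 12.5 CpG dinucleotides against 6. CCAAT was found on either strand in 2 of 7 windows of called and 9 of 14 of uncalled genes (33.8% of all windows), and TATAAA in 0 of 7 and 2 of 14 (12.4%). TGATNNAT, a sequence that HOX and PBX proteins can bind together, was found in 1 and 2 windows (7.68% of all), and CACGTG in 0 and 4 (6.02%). No test was made of these counts.

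In group 3 the HOXA and HOXB genes were called and the HOXD gene was not. Hoxb3 read 9.23, 9.77, 9.46, 9.53 and 10.17, with a difference from background of 4.11 ± 0.12 (limma adjusted p = 1.78e-14). Hoxa3, needed for the thymus and parathyroid glands, read 8.55, 8.50, 8.44, 8.37 and 8.94, with a difference of 3.04 ± 0.12 (limma adjusted p = 7.82e-13). The lowest of the 5 values was in replicate 1 for Hoxb3 and in replicate 4 for Hoxa3, and the highest was in replicate 5 for both. By its type the probe set of Hoxa3 can cross-hybridise. A probe set without that risk averaged 8.28 and was highest in replicate 1, and 2 further ones averaged 5.58 and 4.63. The second probe set of Hoxb3 averaged 6.18. Hoxd3 was not called, at a mean of 4.27 ± 0.18 (SD, n = 5).

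Hoxa2 and Hoxb2, which pattern the hindbrain and neural crest, were both called. Hoxa2 read 6.09, 6.65, 6.43, 6.03 and 6.94, with a difference of 0.91 ± 0.16 (limma adjusted p = 4.54e-05). Hoxb2 read 6.25, 6.39, 5.85, 6.36 and 6.92, with a difference of 0.83 ± 0.15 (limma adjusted p = 6.03e-05). Replicate 5 was again the highest for both, and neither was called with the 99th percentile as background. Both genes numbered 1 that were measured lay below background, Hoxb1 at 3.73 ± 0.21 and Hoxd1 at 2.99 ± 0.15.

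**Figure D2:**
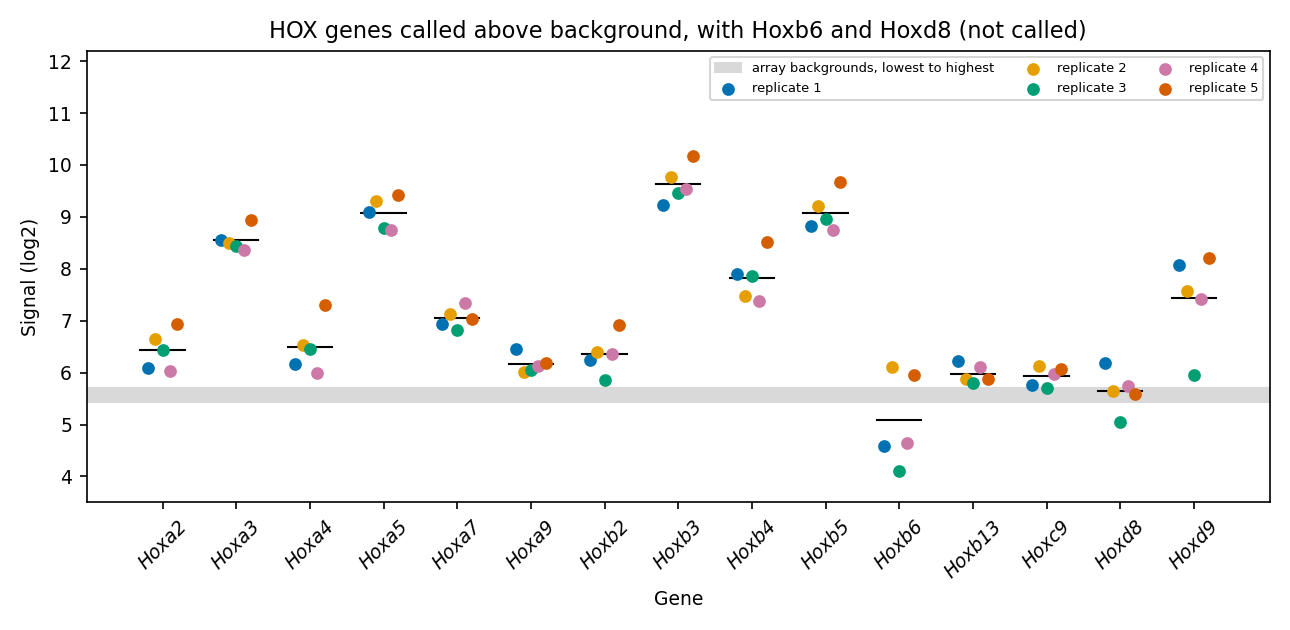
Log2 signal on each of the 5 arrays (coloured points) and their mean (black line) for the 13 HOX genes called above background and for Hoxb6 and Hoxd8, which were not; the grey band runs from the lowest to the highest array background (5.43 to 5.70). Replicate 5 is the highest point for all 8 HOXA and HOXB genes numbered 2 to 5, and replicate 3 stands apart for Hoxd9 at 5.95.

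Genes numbered 6 to 8 gave few calls. Hoxa7 read 6.93, 7.12, 6.82, 7.34 and 7.03, with a difference of 1.53 ± 0.13 (limma adjusted p = 9.11e-09), and replicate 4 was its highest array. Hoxb6 read 4.58, 6.11, 4.11, 4.64 and 5.95, so that it exceeded background in replicates 2 and 5 only, and it was not called (limma adjusted p = 1). It rests on 1 probe set, whose name ends in _a_at. Hoxd8 read 6.19, 5.65, 5.04, 5.74 and 5.58, on both sides of the background (difference 0.12 ± 0.15, limma adjusted p = 0.300), and it was called with the 90th percentile. Hoxb7, Hoxc6 and Hoxc8 lay below background on every array, at means of 4.61, 5.20 and 3.21.

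Among the posterior genes, 3 of 4 in group 9 and 1 of 10 in groups 10 to 13 were called. Over all genes outside the receptor set the share was 74.9%. Hoxd9, known from limb and trunk patterning, read 8.08, 7.58, 5.95, 7.41 and 8.20, a 4.75-fold range, with replicate 3 low and the others close together. Its difference from background was 1.92 ± 0.25 (limma adjusted p = 1.60e-06), and it was called without each replicate in turn. Hoxa9 (6.46, 6.01, 6.05, 6.12 and 6.19) and Hoxc9 (5.76, 6.13, 5.71, 5.97 and 6.07) were called by small margins of 0.64 ± 0.13 and 0.41 ± 0.13 (limma adjusted p = 0.000178 and 0.00478). A second probe set of Hoxa9 averaged 3.57, below background. Hoxb9 was not called, at 5.48, 5.26, 5.55, 4.82 and 5.49, although 2 arrays exceeded their background. The called gene of groups 10 to 13 was Hoxb13, a gene of the prostate and tail, at 6.22, 5.87, 5.81, 6.11 and 5.87 (difference 0.46 ± 0.13, limma adjusted p = 0.00212). Hoxa9, Hoxb13 and Hoxc9 were not called with the 99th percentile. Hoxd12 (mean 5.44 ± 0.091) lay next to background and was called with the 90th percentile, and the other 8 posterior genes had means from 3.77 to 4.62, below background on every array. Over all 20 uncalled members the means ran from 2.99 to 5.64, and 16 exceeded background on no array.

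**Figure D3:**
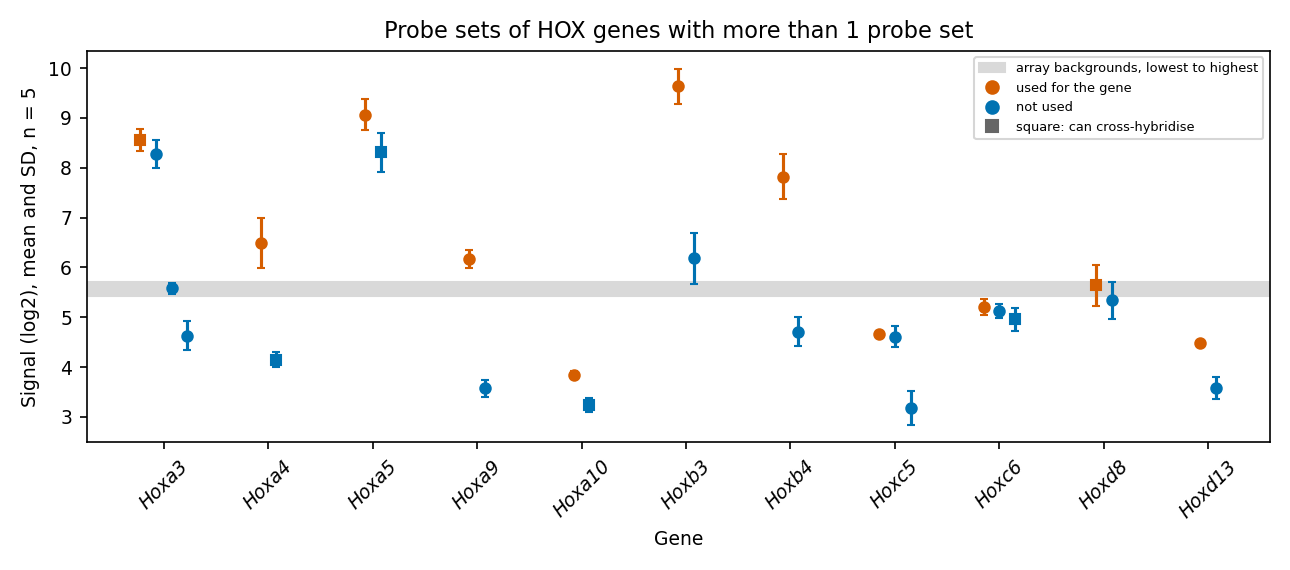
Mean and SD (n = 5) of the log2 signal of every probe set of the 11 HOX genes that had more than 1. Orange marks the probe set used for the gene, and the grey band the array backgrounds. Squares mark those with names ending in _a_at, _s_at or _x_at, which the legend groups as able to cross-hybridise. Second probe sets of Hoxa4, Hoxa9 and Hoxb4 lie under the band, and those of Hoxa5 and Hoxb3 above it.

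Replicate 5 gave the highest values of most called members. It was the highest array for 9 of the 13, where it was the highest for 21.2% of the 13563 genes called above background. Replicates 1 to 4 were the highest array for 2, 1, 0 and 1 of the 13, against 22.4%, 16.2%, 26.6% and 13.5% of called genes. The lowest array was replicate 4 for 6 of the 13 and replicate 3 for 5, and replicates 1, 2 and 5 for 1, 1 and 0, against 18%, 24.6%, 22.8%, 19.9% and 14.7%. For the 8 HOXA and HOXB genes numbered 2 to 5 it was the highest in all 8, and replicate 4 was the lowest in 6 (against 18% of called genes). The exceptions were Hoxb2, lowest in replicate 3, and Hoxb3, lowest in replicate 1. These counts depend on the probe set used for each gene. The Hoxa3 probe set that averaged 8.28 was highest in replicate 1, at 8.56 against 8.53 in replicate 5. The second probe set of Hoxa5 was highest in replicate 5 (8.65) but lowest in replicate 1, at 7.83 against 7.95 in replicate 4. That of Hoxb3 was highest in replicate 5 (6.80). Deviations were taken of each array from the mean of a gene, and the median deviation of all called genes was subtracted. Averaged over these 8 genes they were −0.16, 0.05, −0.15, −0.27 and 0.54 log2 units in replicates 1 to 5. Between replicates 4 and 5 the difference was widest for Hoxa4, at 2.49-fold, and narrowest for Hoxb2, at 1.47-fold. The values of all these genes come from the same 5 arrays and are not independent. Of the other 5 called genes 4 were lowest in replicate 3, and their mean deviations were 0.18, 0.03, −0.45, 0.10 and 0.14.

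The spread of single genes was set against that of other genes of like signal. The variance over the 5 arrays was divided by the variance that limma fitted for that signal and tested by a one-sided F test. None of the 33 members passed after Benjamini-Hochberg adjustment (adjusted p under 0.05), where 0% of all 18194 genes did. With 4 and 4.22 degrees of freedom this test has little power after adjustment over so many genes. Its lack of calls therefore cannot show that the spread was small. At an unadjusted p under 0.05 the count was 2 members, where 5.58% of all genes passed. These were Hoxb6 (F test of spread, adjusted p = 0.810) and Hoxd9 (F test of spread, adjusted p = 0.811). The median SD of the 13 called members was 0.358, and that of all called genes was 0.154. These SDs are not matched for signal. The called members lay a median of 1.53 log2 units above background, and all genes outside the receptor set a median of 3.42.

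Hoxb5os, a noncoding gene of the HOXB cluster named for its position opposite Hoxb5, was also highest in replicate 5. It read 7.89, 8.47, 8.27, 7.35 and 9.24, above background on every array (2.72 ± 0.21, limma adjusted p = 4.24e-09), with a 3.71-fold difference between replicates 4 and 5. Its 5 arrays had the same order, replicates 5, 2, 3, 1 and 4 from high to low, as those of Hoxb5, Hoxa2 and Hoxa4. That order was chosen after the values were seen and was found in 1.17% of the called genes. Whether its probes and those of Hoxb5 see separate transcripts is not shown by these data. Hoxa11os and Hoxd3os1, noncoding genes of HOXA and HOXD, were not called, at means of 3.45 and 3.87.

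Many mesenchymal markers were also highest in replicate 5. Of the 21 called fibroblast and mesenchyme genes, 13 were highest in replicate 5 and 16 were lowest in replicate 3. Over all called genes these shares were 21.2% and 24.6%. The mean deviations of the 21 genes were 0.01, 0.30, −0.50, −0.12 and 0.31. The log2 of the summed signal of that list ran from 15.92 in replicate 3 to 16.44 in replicate 5. The 2 uncalled genes of the list were Lum and Fgf10. Its first members, the collagen genes Col1a1 and Col1a2, read 13.05, 13.14, 12.58, 12.97 and 13.05, and 12.64, 12.92, 12.06, 12.39 and 13.07. The 4 genes of the list that were lowest in replicate 4, as 6 of the 8 HOX genes were, were Tcf21, Tbx4, Wnt2 and Meox2. They were singled out after the values were seen, and 18% of all called genes were lowest in replicate 4. Tcf21 and Tbx4, transcription factor genes of lung mesenchyme, read 11.79, 12.25, 11.58, 11.39 and 12.50, and 9.72, 10.41, 9.65, 9.54 and 10.70. Meox2, a homeobox gene of mesoderm, read 9.73, 10.58, 9.98, 9.72 and 10.93, and Wnt2, a ligand gene of lung mesenchyme, read 7.00, 7.70, 6.93, 6.65 and 7.74. These 4 were 2.13-fold to 2.31-fold higher in replicate 5 than in replicate 4. Like Hoxd9, Dcn and Mfap5, matrix genes of fibroblasts, were lowest in replicate 3, at 7.05 and 7.77 against at least 8.65 and 8.76 elsewhere.

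**Figure D4:**
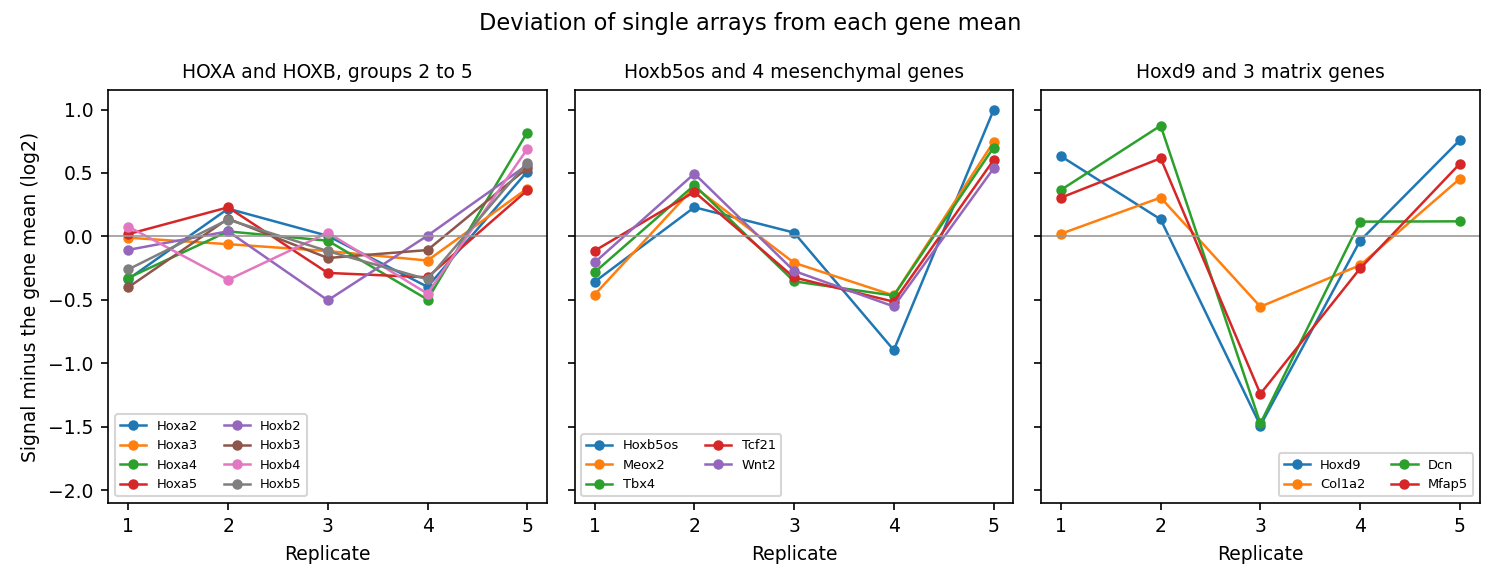
Log2 signal of each array minus the mean of the gene over the 5 arrays, for the 8 HOXA and HOXB genes numbered 2 to 5 (left), Hoxb5os with Meox2, Tbx4, Tcf21 and Wnt2 (middle), and Hoxd9 with Col1a2, Dcn and Mfap5 (right); the lines join the values of a gene and imply no order of the replicates. In the left and middle panels replicate 5 is the highest array of every gene, and in the right panel replicate 3 is the lowest. Meox2, Tbx4, Tcf21 and Wnt2 are the genes of the fibroblast and mesenchyme list lowest in replicate 4. They, Dcn and Mfap5 were picked after their values were seen. Of the 21 called genes of that list, 16 were lowest in replicate 3, so the middle panel does not stand for the list.

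The other cell type lists gave these values beside the same arrays. Of all called genes, 21.2% were highest in replicate 5 and 24.6% lowest in replicate 3. The shares highest in replicate 4 and lowest in replicate 5 were 13.5% and 14.7%. Smooth muscle genes were highest in replicate 5 in 7 of 9 and lowest in replicate 3 in 7 of 9 (Acta2 12.48 ± 0.43, Tagln 11.62 ± 0.53). The log2 of their summed signal ran from 13.09 to 14.22. Endothelial genes were highest in replicate 5 in 10 of 17 (Pecam1 9.82 ± 0.17, Cdh5 10.10 ± 0.13), with log2 summed signals from 14.36 to 14.66. Immune genes were highest in replicate 5 in 9 of 14 (Ptprc 9.36 ± 0.30, Laptm5 12.10 ± 0.36). Their log2 summed signals ran from 15.32 in replicate 3 to 15.84 in replicate 4, with 15.74 in replicate 5. Alveolar type 2 genes were highest in replicate 4 in 11 of 18 and lowest in replicate 5 in 10 of 18, with mean deviations of 0.03, −0.05, 0.01, 0.09 and −0.08. Alveolar type 1 genes had mean deviations from −0.23 in replicate 1 to 0.14 in replicate 3, with 0.06 in replicate 5 (Hopx 13.26 ± 0.12). Those of ciliated genes ran from −0.45 in replicate 3 to 0.84 in replicate 1, with −0.34 in replicate 5. Those of the 4 called mesothelial genes (Msln 11.73 ± 0.18, Upk3b 8.40 ± 0.94) ran from −0.71 in replicate 5 to 0.48 in replicate 4. The part of these cells in the HOX signal was not tested.

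All measured cofactors and chromatin regulators of HOX genes were called against the receptor background. All 10 measured genes of the PBX, MEIS and related TALE class were called. Pbx2 and Pbx3, whose proteins pair with HOX proteins on DNA, had 11.91 ± 0.034 and 11.85 ± 0.10, and Pbx4 had 8.43 ± 0.41. All 11 genes of Polycomb complex PRC2 were called, among them the histone methyltransferase genes Ezh2 (11.05 ± 0.16) and Ezh1 (9.22 ± 0.15) and their partner Eed (11.70 ± 0.080). All 15 genes of PRC1 were called as well, with Bmi1 at 11.96 ± 0.095, Rnf2 at 11.72 ± 0.023 and Ring1 at 9.68 ± 0.34. So were all 17 Trithorax-type and demethylase genes, with Kmt2a at 11.04 ± 0.15, Men1 at 9.16 ± 0.15 and Psip1 at 11.53 ± 0.18. The shares of 100% in these lists stand against 74.9% of all genes outside the receptor set. With the background from genes typical of other organs, 6 of 10 TALE, 9 of 11 PRC2, 12 of 15 PRC1 and 17 of 17 Trithorax-type genes were called, against 52.5%.

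Fewer of the activators and homeobox relatives were called, where 74.9% of all genes outside the receptor set were. Of 11 measured upstream activators 6 were called, among them the retinoic acid receptor genes Rara, Rarb and Rarg at 7.63 ± 0.17, 7.86 ± 0.38 and 9.90 ± 0.13. The 5 below were Cdx1, Cdx2 and Cdx4, caudal genes that activate HOX genes in the early embryo, and the growth factor genes Fgf8 and Gdf11. All 6 repressors and partners were called, with Gmnn at 10.76 ± 0.21, Zbtb16 at 7.60 ± 0.61 and Ctcf at 11.73 ± 0.051. Of 14 ParaHox and related homeobox genes 3 were called, Pdx1 (6.09 ± 0.22), Meox1 (7.61 ± 0.21) and Meox2 (10.19 ± 0.54), and Gsx1 and Gsx2 were not (5.27 ± 0.10 and 3.65 ± 0.16). All 13 transcription factor genes of lung epithelium were called, with Nkx2-1 at 9.22 ± 0.029, Foxa2 at 11.46 ± 0.042 and Foxa1 at 12.85 ± 0.076.

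Measured protein-coding genes next to the clusters were called on some sides and not on others. At HOXA, Evx1 beside Hoxa13 was not called (4.24 ± 0.13). At HOXB, Skap1 beside Hoxb1 was not called (5.03 ± 0.30) and Ttll6 beside Hoxb13 was (6.95 ± 0.80). At HOXC both neighbours were called, Smug1 beside Hoxc4 at 9.78 ± 0.13 and Calcoco1 beside Hoxc13 at 11.42 ± 0.29, while 1 of the 7 HOXC genes between them was. At HOXD, Mtx2 beside Hoxd1 was called (10.84 ± 0.040) and Evx2 beside Hoxd13 was not (5.12 ± 0.053).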

How the data were processed

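RNA of 5 sorted cell samples was amplified with NuGEN Ovation kits and hybridised to Affymetrix arrays, per the labels' protocols. The deposited values were 1 log2 signal for each of 45101 probe sets and each array. The log2 scale was inferred from their range of 2.46 to 15.24, and the sources used here do not give the authors' normalization or software. Probe sets were named from the platform annotation of 2016: 34958 had 1 gene symbol, 932 had several and 9211 had none, and those with several or none were left out. Genes were represented by their probe set of highest mean.

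The background of each array was subtracted, and an intercept was fitted for all genes with limma 3.58.1 in R 4.3.3 (trended prior), with Benjamini-Hochberg adjustment. The same values gave the F test of spread (robust prior), and both steps were tested on simulated data. The number of arrays limits the precision, and the signal of different probe sets does not rank genes by expression. Upstream windows came from RefSeq (GRCm38.p6), and motifs were searched on both strands.

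The members, the gene lists and the tests were chosen with earlier results of these data known. Named were all called HOX genes, uncalled ones that an alternative called, that spread at an unadjusted p under 0.05 or that complete a paralogue or probe set comparison, the first 3 measured genes of each pathway list with a minority of up to 5, the first 2 of each cell type list, and Nkx2-1, Sftpc and Hopx. Tcf21, Tbx4, Wnt2, Meox2 as a mesenchymal gene, Dcn, Mfap5 and the genes next to the clusters were singled out after their values were seen. Alternatives were other backgrounds, probe set rules, normalizations and variance models, a filter on low values and left-out replicates.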

Additional observations from a re-analysis of the deposited data

Results flagged for a closer look

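Of 99 values checked for a lone array, none of a HOX gene or of Hoxb5os was flagged, and 6 of other named genes were. In these the gap from the extreme array to the next exceeded 0.71 of the range, which chance gives in about 1 of 20 such checks. Ttll6, beside Hoxb13, had replicate 1 high at 8.35 (gap 0.791 of the range). Ezh1 and Men1 had replicate 5 high at 9.49 and 9.41 (0.844 and 0.729). Eed had replicate 3 high at 11.84 (0.793), Rnf2 had replicate 4 high at 11.76 (0.765), and Lum had replicate 3 low at 3.79 (0.769).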

How the results depend on the processing

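All 33 HOX calls and directions were kept under quantile normalization, median centring, a fit with no mean-variance trend and without replicates 2, 3, 4 or 5, and none was lost among the 14 members left by the filter on low values. The background and the probe set rule moved the count of 13: it was 7 with the 99th percentile (66.8% of all genes), 3 with organ-restricted genes (52.5%), 9 with the lowest probe set (60.5%) and 11 with the median of the probe sets (73%, HOXA 4). With organ-restricted genes the calls were 1 in HOXA, 2 in HOXB, 0 in HOXC and 0 in HOXD, and 1, 2 and 0 in groups 1 to 3, 4 to 8 and 9 to 13. The pathway lists then had 6 TALE, 9 PRC2, 12 PRC1, 17 Trithorax-type, 3 activator, 5 repressor or partner, 1 ParaHox or related, 0 noncoding and 13 lung epithelium genes called. The cell type lists had 18 alveolar type 2, 12 type 1, 7 ciliated, 16 fibroblast, 6 smooth muscle, 15 endothelial, 12 immune and 2 mesothelial genes called. Hoxa3 lost its call.

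Differences from background that changed sign are given in log2 units. With organ-restricted genes they were −1.81 for Hoxa2, −1.76 for Hoxa4, −1.20 for Hoxa7, −2.08 for Hoxa9, −1.89 for Hoxb2, −0.42 for Hoxb4, −2.27 for Hoxb13, −2.32 for Hoxc9, −2.60 for Hoxd8 and −0.80 for Hoxd9. With the 99th percentile they were −0.046 for Hoxa2, −0.31 for Hoxa9, −0.12 for Hoxb2, −0.50 for Hoxb13, −0.55 for Hoxc9 and −0.84 for Hoxd8, and Hoxa4 lost its call. With the 90th percentile they were 0.23 for Hoxb9, 0.11 for Hoxc6 and 0.35 for Hoxd12, and Hoxd8 and Hoxd12 were called. With the lowest probe set they were −0.75 for Hoxa3, −1.23 for Hoxa4, −1.81 for Hoxa9, −0.67 for Hoxb4, −0.040 for Hoxd8 and 0.058 for Hoxd12. With the median of the probe sets they were −0.064 for Hoxa4, −0.51 for Hoxa9 and 0.058 for Hoxd12. Hoxd8 had −0.18 without probe sets whose names end in _a_at, _s_at or _x_at. When each replicate was left out, it had from −0.038 without replicate 1 to 0.26 without replicate 3. Hoxb6 had 0.0056 without both replicates 1 and 3, an alternative chosen after seeing the data. The cause was not tested. Signals near background limit the calls of Hoxa9, Hoxb13 and Hoxc9. No paired analysis was possible because all samples form 1 group.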
